A study of Homo sapiens with 4 samples.

Results

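The RNA of 60 genes of the cell cycle and of DNA replication was examined in cells labelled as the HCC line MHCC-97H that had been given migrasomes (Migs), the large vesicles that migrating cells leave behind. The rule that lists them names symbols and uses no measured value, although it was written with earlier results of these data known, and they were matched to the tables by gene name and Ensembl identifier. They are 60 of the 58735 genes counted, and all 60 had at least 10 reads in at least 1 library, as did 19895 genes in all. By the labels, the receiving cells were wild-type MHCC-97H, an established human HCC line of high metastatic capacity, and each of the 4 conditions had 1 library. Cells of the control received PBS for 24 h. Cells of the other 3 conditions received 2 μg of Migs for the same time, collected from MHCC-97H in normoxia (normo-Migs), from MHCC-97H in hypoxia (hypo-Migs), or from MHCC-97H without CD147, a surface glycoprotein encoded by BSG, in hypoxia (CD147KO-Migs). The knockout was thus in the cells that released the Migs and not in those sequenced, so BSG reads could not serve as a check of it. The labels and the supplementary methods give normoxia as the source of normo-Migs, whereas the main methods text names hypoxia for them too. Whether the knockout line was a single clone is not given in the sources used here.

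A dividing cell passes from G1, in which D-type cyclins with CDK4 or CDK6 phosphorylate the RB protein and release E2F factors, into S phase, in which the licensed MCM helicase opens DNA at origins. Cyclin B with CDK1 then drives entry into mitosis, where Aurora and Polo kinases, kinesins and kinetochore proteins divide the chromosomes, and the anaphase-promoting complex (APC/C) ends it by marking cyclins and securin for destruction. The RNAs of many of these genes rise and fall with the cycle: E2F factors act on genes of DNA synthesis at the start of S phase, and the B-MYB and FOXM1 factors act on genes of G2 and mitosis through an element named the cell cycle genes homology region (CHR). In an unsorted culture, the level of such an RNA depends both on how many cells are in a phase and on how much RNA each of them holds, and in bulk RNA fewer cells of a kind and less RNA per cell cannot be told apart.

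The promoters of the 2 sets of genes to which the results below return carry different elements. RefSeq promoter windows on GRCh38.p14, from 250 bases before to 50 bases after the start of transcription, were matched by symbol for 47 of the 60 genes. UBE2C, MCM5, FOXM1, BIRC5, E2F8, CDK2, AURKA, MCM4, CCNE2, TPX2, CCND2, TTK and CCND1 had no entry in the table. Both strands were searched for TTTNNCGC, an E2F-like element, for TTTGAA, the CHR, and for CCAAT, and none of these patterns contains another. The E2F-like element was in 8 of 10 windows of origin licensing and helicase genes (80.0%), in 3 of 23 windows of G2, mitotic and spindle genes (13.0%), and in 6.90% of all 27305 windows in the table. The CHR was in none of the 10 licensing windows, in 15 of the 23 G2, mitotic and spindle windows (65.2%), and in 15.4% of all windows. CCAAT was in 82.6% of the G2, mitotic and spindle windows and in 35.7% of all windows, and it stood together with a CHR in 60.9% of the former and 6.08% of the latter. A match is a description of the letters in a window and not evidence of binding.

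The E2F-like element nearest to the start is shown for 6 replication genes and for E2F1 in windows of 30 bases, read 5′ to 3′ on the strand of the gene, with the element in capitals. In MCM2 (chr3:127598402-127598431, plus strand), MCM7 (chr7:100101388-100101417, minus) and MCM3 (chr6:52284728-52284757, minus) it is read as written, and in MCM6 (chr2:135876511-135876540, minus), PCNA (chr20:5126663-5126692, minus), GINS2 (chr16:85688967-85688996, minus) and E2F1 (chr20:33686381-33686410, minus) it lies on the other strand. In MCM2, MCM6 and E2F1, a further match of opposite strand overlaps the marked element and is not capitalised in full.
MCM2: cgtgaaccactTTTCGCGCgaaacctggtt
MCM7: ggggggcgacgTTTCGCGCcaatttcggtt
MCM3: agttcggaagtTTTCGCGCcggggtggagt
MCM6: ggtcaggtttgGCGCGAAAtctccagctcc
PCNA: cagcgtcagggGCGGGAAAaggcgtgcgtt
GINS2: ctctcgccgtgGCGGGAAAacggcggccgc
E2F1: aaggatttggcGCGTAAAAgtggccgggac

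The CHR nearest to the start is shown for 7 mitotic genes in the same way, because it sits at nearly the same distance from the start in several of them. Its first base is 29 bases before the start in PLK1 (chr16:23678848-23678877, plus), in CCNB2 (chr15:59105105-59105134, plus) and in MKI67 (chr10:128126435-128126464, minus), 23 bases before it in BUB1B (chr15:40161034-40161063, plus), and at base 25 of the transcript in MAD2L1 (chr4:120066807-120066836, minus) and base 41 in CENPF (chr1:214603215-214603244, plus). In TOP2A (chr17:40418030-40418059, minus) it lies 151 bases before the start and on the other strand. Among the 16 members with a CHR, it began within 50 bases of the start in 11, and it was read as written in 13.
PLK1: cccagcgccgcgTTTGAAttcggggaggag
CCNB2: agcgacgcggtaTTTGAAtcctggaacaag
MKI67: tcttcgttttcgTTTGAAttgggcgggcgc
BUB1B: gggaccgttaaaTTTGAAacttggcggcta
MAD2L1: tgcgtcgttactTTTGAAacgcttggcggg
CENPF: ccggtggcggctgcgggcagTTTGAAttag
TOP2A: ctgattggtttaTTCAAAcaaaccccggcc

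Longer stretches without an annotated exon are shown for a gene of each set and for RRM1, whose RNA differed most from PBS among the abundant members. The first covers the 150 bases before the start of MCM6 (chr2:135876444-135876593, minus), with 3 E2F-like elements, of which a pair overlaps, and 2 CCAAT boxes in capitals, the latter as ATTGG on the strand shown. The second runs from 204 to 55 bases before the start of TOP2A (chr17:40417951-40418100, minus), with 2 CHRs and 2 CCAAT boxes. The third covers the 150 bases before the start of RRM1 (chr11:4094535-4094684, plus), with a single CCAAT box 28 bases before the start. RRM1 also has a CHR on the other strand, 199 bases before the start and thus outside the stretch shown.
MCM6: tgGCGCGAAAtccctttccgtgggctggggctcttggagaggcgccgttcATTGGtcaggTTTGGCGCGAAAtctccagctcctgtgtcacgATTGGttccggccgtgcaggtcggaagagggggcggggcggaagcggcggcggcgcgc
TOP2A: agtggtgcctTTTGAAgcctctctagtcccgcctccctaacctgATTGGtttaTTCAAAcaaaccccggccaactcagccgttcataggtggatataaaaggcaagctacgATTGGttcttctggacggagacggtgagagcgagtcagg
RRM1: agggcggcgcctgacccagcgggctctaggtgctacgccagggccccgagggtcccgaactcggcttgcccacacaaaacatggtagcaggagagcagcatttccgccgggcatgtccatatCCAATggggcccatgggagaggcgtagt

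The libraries held 33882496 to 40285223 reads on genes. The 60 genes took 363182 of them in PBS, 318604 in normo-Migs, 362430 in hypo-Migs and 308922 in CD147KO-Migs. The library labelled PBS stood apart from the other 3. In it, 251 genes had at most 3 reads where each Mig library had at least 100, and no Mig library had such a gene. Mitochondrial genes took 2.69% of its reads and 5.00% to 5.16% of those of the Mig libraries. Of 14 listed hepatocyte and liver cancer genes, 4 were above a floor of 3 reads with PBS and 9 were at 0. With normo-Migs, hypo-Migs and CD147KO-Migs, 5, 6 and 8 were above that floor and 8, 7 and 6 were at 0. KRT8 and KRT18, keratins of that list, were abundant in all 4 libraries, whereas its members ALB, AFP, APOB, TTR and GPC3 were at 0 in all 4. The summed level of 8 fibroblast and stellate genes was 25.6 CPM (reads per 1000000 reads on genes, after scaling) with PBS and 211 to 223 CPM in the Mig libraries, that of 5 biliary genes was 1699 CPM and 544 to 594 CPM, and endothelial and immune lists stayed at or under 5.54 CPM in every library. These values leave it in doubt whether the library labelled PBS holds the same cells, prepared in the same way, as the Mig libraries, and the zeros of the liver genes leave the line itself unchecked. Every ratio to PBS below rests on that label. The part of these differences in the results against PBS was not tested, and with 1 library labelled PBS they and the treatment cannot be told apart.

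Each difference is given as a log2 ratio of TMM-scaled reads with its exact 95% (Clopper-Pearson) interval, which covers counting error only and compares libraries, not conditions. For a typical member this interval reached 0.06 to either side on the log2 scale. A gene was counted as higher or lower where the ratio passed 2-fold, the fold used in the study, or 1.2-fold as a finer limit, and the interval left out equality. The 3 comparisons with PBS share that library, and the comparisons among Migs share theirs, so they are not independent of each other. Gene positions are those of GENCODE release 29 on GRCh38. Levels of different genes are compared only as FPKM, which divides reads by gene length. On that scale the 60 genes ran from 0 (CCND2) to 201 (RRM1) with PBS, with a median of 29.2, and the medians of the Mig libraries were 28.0 to 29.5.

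Few of the 60 genes lay far from PBS. Past 2-fold, 2 members were higher with normo-Migs than with PBS (3.33%), against 16.4% of all genes tested, 2 were higher with hypo-Migs, against 17.5%, and 2 with CD147KO-Migs, against 16.8%. They were CCND2 and E2F1 in each comparison. In the other direction, RRM1 and PLK1 were lower in each, against 11.0% of all genes in normo-Migs, 10.9% in hypo-Migs and 10.8% in CD147KO-Migs. All 3 Mig libraries were past 2-fold above PBS for 12.6% of all genes and below it for 6.73%. Weakly read genes make up many of these, and of the 6960 genes with at least 1000 reads on average, among which 53 of the 60 members fall, 5.96% were higher and 2.89% were lower in all 3. The members' share of 3.33% in each direction was thus under the background in the first direction and close to that of abundant genes in the second.

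At 1.2-fold, a smaller share of the members than of background genes was above PBS. The share below it was close to that of abundant genes. In all 3 Mig libraries, 7 members were higher (11.7%, against 25.3% of all genes and 27.4% of abundant ones) and 17 were lower (28.3%, against 21.7% and 26.8%). The members that were higher were CCND1, CCND2, CDK6, E2F1, MCM6, CDK1 and CDC25C. Those that were lower were CDT1, GMNN, MCM2, MCM7 and GINS2 of licensing and the helicase, PCNA, RRM1 and TK1 of the clamp and nucleotide supply, E2F7, E2F8 and FOXM1 among the factors, and CDC25B, PLK1, KIF23, CENPE, CENPF and HMMR of G2 and mitosis. PBS was above all 3 Mig libraries for 34 members, a share of 56.7% against 39.3% of all genes and 46.1% of abundant ones, and below all 3 for 18, a share of 30.0% against 42.7% and 45.1%. The median log2 ratio over the 60 genes was -0.07 in normo-Migs, -0.15 in hypo-Migs and -0.15 in CD147KO-Migs, where that over all genes was 0.03, 0.04 and 0.03. For a typical member the 3 Mig libraries lay within a range of 0.14 on the log2 scale and their mean lay 0.26 from PBS. The distance exceeded the range for 37 of the 60 (61.7%), against 67.8% of all genes and 82.3% of abundant ones, so this was less frequent among the members than in either. Over abundant genes the median range was 0.115 and the median distance 0.357. These 3 libraries are different treatments, so their range is not a spread between replicates.

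**Figure D1:**
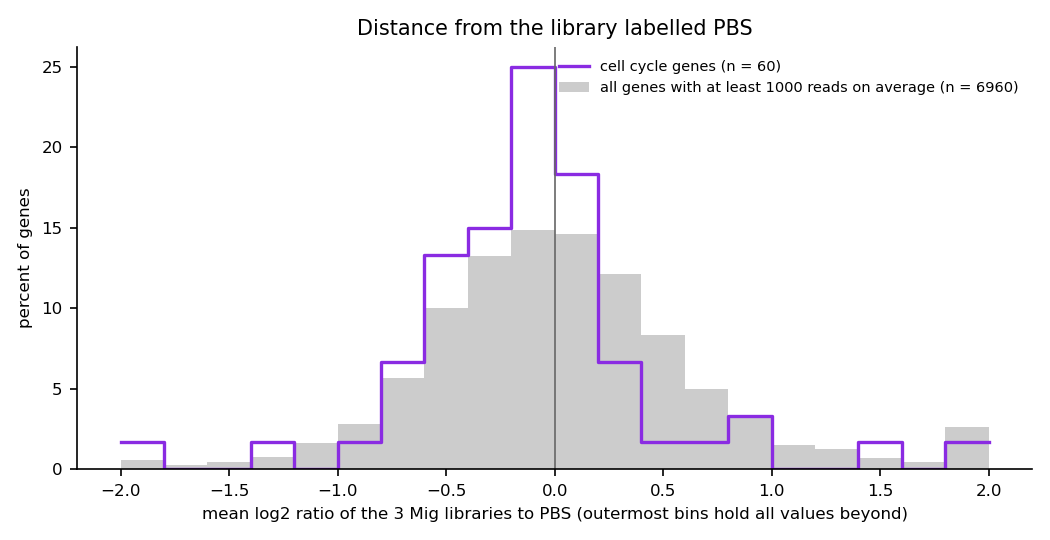
Percent of genes (vertical axis) by the mean log2 ratio of the 3 Mig libraries to the library labelled PBS, in bins of 0.2, for the 60 cell cycle genes (line) and for the 6960 genes with at least 1000 reads on average (grey bars). The bin from -0.2 to 0 held 15 of the 60 members and 14.9% of abundant genes. The members in the bins above 0.2 were CCND2, E2F1, CDK6, CCND1, CDK1, CDC25C, MCM6, CCNE1, UBE2C and TTK.

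The D-type cyclins and their kinases, which carry a growth signal into the cycle, included CCND1 and CDK6, both close to 2-fold above PBS. CCND1 (cyclin D1; ENSG00000110092, chr11:69641087-69654474) had 5044 reads in PBS, 9636 in normo-Migs, 10782 in hypo-Migs and 9423 in CD147KO-Migs, or 146, 283, 269 and 269 CPM. All 3 Mig libraries were above PBS, by log2 ratios of 0.95 (0.90 to 1.00), 0.88 (0.83 to 0.93) and 0.88 (0.83 to 0.93), and its FPKM ran from 30.2 to 58.0. CCND1 shares 10.3% of its exon bases with a neighbour. CDK6 (ENSG00000105810, chr7:92604921-92836594), a kinase partner of cyclin D, had 3210, 6120, 7339 and 5802 reads in the same order, or 93.0, 180, 183 and 166 CPM. Its ratios to PBS were 0.95 (0.89 to 1.01), 0.98 (0.92 to 1.04) and 0.83 (0.77 to 0.90), at 7.57 to 14.8 FPKM, and CD147KO-Migs was the lowest of the Migs.

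CCND3 (cyclin D3) lay close to PBS, with 5018, 4931, 5187 and 4925 reads, 145, 145, 129 and 141 CPM, and 22.1 to 25.01 FPKM. Its ratio was -0.01 (-0.06 to 0.05) in normo-Migs, -0.17 (-0.23 to -0.11) in hypo-Migs and -0.05 (-0.11 to 0.01) in CD147KO-Migs, so that hypo-Migs alone had an interval below 0. CCND2 (cyclin D2) was hardly read: it had 0 reads in PBS, 18 in normo-Migs, 8 in hypo-Migs and 14 in CD147KO-Migs, at most 0.07 FPKM. Against a floor of 3 reads in the PBS library, taken without the counting error of the Mig library, these were at least 6.08-fold, 2.29-fold and 4.60-fold higher. The exact intervals, which take in the error of both libraries, reached down to log2 ratios of 2.155, 0.554 and 1.709. The gene was called from its ratio with the prior count, at 3.39, 2.20 and 3.03, and with hypo-Migs its interval thus began under 2-fold. CCND2 shares 13.8% of its exon bases with other genes on the same strand, so its few reads are uncertain.

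CDK4 and CDK2, the other kinases of G1 and S, were lower than PBS in each Mig library, with ratios of -0.27 to -0.19 for CDK4 and -0.31 to -0.26 for CDK2. Both share exon bases with other genes (43.2% of CDK4 with TSPAN31, 16.8% of CDK2), and without stated handling of strands their reads are uncertain. CCNE1 (cyclin E1), the partner of CDK2 at entry into S phase, had 776 reads in PBS, 887 in normo-Migs, 1073 in hypo-Migs and 1095 in CD147KO-Migs, or 22.5, 26.0, 26.7 and 31.3 CPM. Its ratio to PBS was 0.21 (0.07 to 0.35), 0.25 (0.12 to 0.39) and 0.48 (0.34 to 0.61), and CD147KO-Migs stood above the others. CCNE2 (cyclin E2), which shares 37.1% of its exon bases with neighbours, had 350, 280, 364 and 357 reads, and its normo-Migs library was the lowest, at -0.30 (-0.54 to -0.07) against PBS. CDC25A, the phosphatase that activates CDK2, had 2203, 2138, 2052 and 2080 reads, or 63.8, 62.7, 51.1 and 59.4 CPM, and hypo-Migs was the lowest of the 4. Over the 9 genes of this group, the summed level was 677 CPM with PBS and 831 to 871 CPM in the Mig libraries, while the median ratio was between -0.16 and 0.01, with CCND1 and CDK6 holding much of the sum.

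E2F1 gave the highest ratio among well-read members. E2F1 (ENSG00000101412, chr20:33675683-33686404), which activates genes of DNA synthesis, had 1169 reads in PBS, 3465 in normo-Migs, 3794 in hypo-Migs and 3749 in CD147KO-Migs, or 33.9, 102, 94.5 and 107 CPM. The ratios to PBS were 1.58 (1.49 to 1.68), 1.48 (1.39 to 1.58) and 1.66 (1.56 to 1.76), with 13.5 FPKM in PBS and 37.4 to 42.4 FPKM in the Mig libraries. The 3 Mig libraries lay within 0.18 of each other on the log2 scale, hypo-Migs lowest. E2F2, a second activator, was close to PBS at -0.14 to -0.08. E2F7 and E2F8, repressors that act later in S phase, were lower than PBS in every Mig library, at -0.54 to -0.40 for E2F7 and -0.69 to -0.40 for E2F8.

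MYBL2 (B-MYB) had 8135, 9270, 10151 and 8476 reads with PBS, normo-Migs, hypo-Migs and CD147KO-Migs, or 236, 272, 253 and 242 CPM. It was 0.21 (0.16 to 0.25) above PBS in normo-Migs, 0.10 (0.06 to 0.14) in hypo-Migs and 0.04 (-0.01 to 0.08) in CD147KO-Migs, at 84.7 to 97.1 FPKM. FOXM1, the other activator of mitotic genes, had 7069, 5658, 6308 and 4965 reads, or 205, 166, 157 and 142 CPM, and ratios of -0.30 (-0.35 to -0.25), -0.38 (-0.43 to -0.33) and -0.53 (-0.58 to -0.48), at 28.7 to 41.7 FPKM. MYBL2 and FOXM1 thus lay on opposite sides of PBS, and in both CD147KO-Migs was the lowest of the Migs. FOXM1 shares 15.9% of its exon bases with neighbours.

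**Figure D2:**
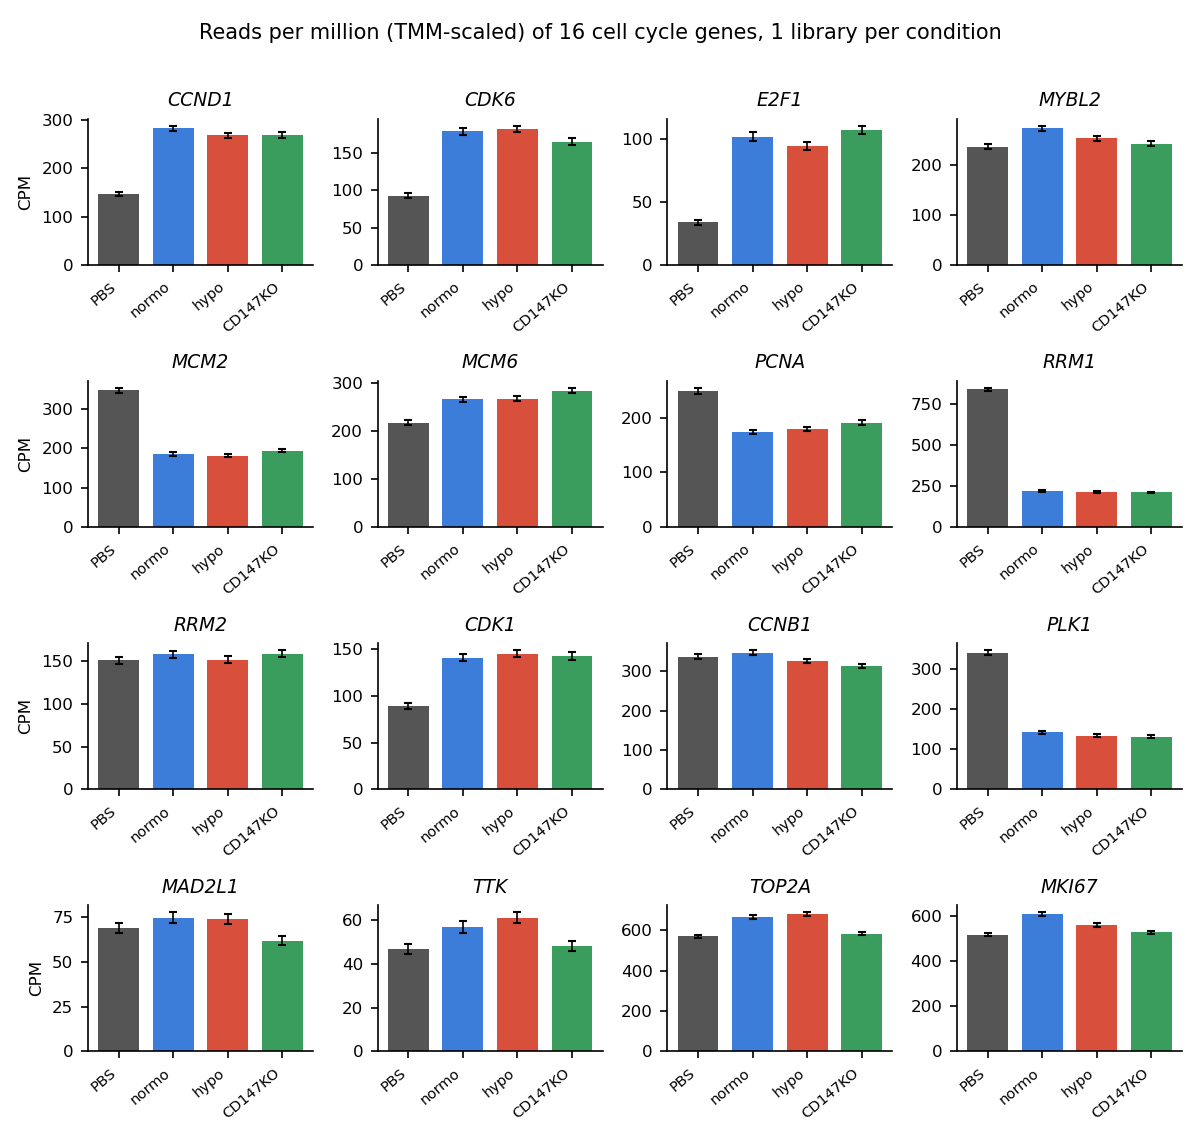
TMM-scaled reads per 1000000 (CPM, vertical axes from 0) of 16 cell cycle genes in the 4 libraries, with exact 95% Poisson intervals as error bars. E2F1, CCND1, CDK6 and CDK1 were lowest with PBS, RRM1, PLK1, MCM2 and PCNA were highest with PBS, and TTK, MAD2L1, TOP2A and MKI67 were lower with CD147KO-Migs than with normo-Migs or hypo-Migs.

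Most origin licensing and helicase genes were lower than PBS. Of the 12, 9 were below PBS in each of the 3 Mig libraries, as were 39.3% of all genes and 46.1% of abundant ones. The medians over the 12 were -0.28, -0.26 and -0.21 with normo-Migs, hypo-Migs and CD147KO-Migs. The summed level was 2884 CPM with PBS (95% Poisson interval 2867 to 2902) and 2321 to 2422 CPM in the Mig libraries. The MCM2 to MCM7 proteins form the ring-shaped helicase, in which each is present once. Their RNAs did not move together. MCM2 (ENSG00000073111, chr3:127598223-127622436) had 12006 reads in PBS, 6334 in normo-Migs, 7283 in hypo-Migs and 6816 in CD147KO-Migs, or 348, 186, 181 and 195 CPM and 36.7 to 70.8 FPKM. Its ratios were -0.90 (-0.95 to -0.86), -0.94 (-0.98 to -0.90) and -0.84 (-0.88 to -0.79), and 23.6% of its exon bases are shared with neighbours. MCM7 had 24236, 16137, 18056 and 16027 reads, or 702, 474, 450 and 458 CPM, at 102 to 160 FPKM, with ratios of -0.57 (-0.60 to -0.54), -0.64 (-0.67 to -0.61) and -0.62 (-0.65 to -0.59). These were the lower pair of the ring.

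MCM5 followed at -0.35 to -0.22 and MCM4 at -0.17 to -0.13. MCM4 had 14808, 12953, 15369 and 13742 reads, or 429, 380, 383 and 392 CPM and 54.0 to 61.4 FPKM, with ratios of -0.17 (-0.21 to -0.14), -0.16 (-0.20 to -0.13) and -0.13 (-0.16 to -0.10). The other subunits of the ring stood above PBS. MCM3 had 10210, 10892, 13145 and 11728 reads, or 296, 320, 328 and 335 CPM and 80.9 to 90.9 FPKM, with ratios of 0.11 (0.07 to 0.15), 0.15 (0.11 to 0.18) and 0.18 (0.14 to 0.22). MCM6 had 7499, 9071, 10724 and 9960 reads, with ratios of 0.29 (0.25 to 0.34), 0.30 (0.26 to 0.34) and 0.39 (0.35 to 0.43). The promoter windows of MCM2, MCM7, MCM3 and MCM6 printed above all hold an E2F-like element, on either side of PBS.

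Of the loading factors, CDT1, which brings the MCM ring to origins, was lower than PBS at -0.66 to -0.53, and GMNN (geminin), its inhibitor, at -0.34 to -0.27. CDC6, the other loader, lay within -0.11 to -0.02, and its interval left out equality with hypo-Migs only. ORC1, the largest subunit of the origin recognition complex, was at 0.07 to 0.17, and ORC6 at -0.23 to -0.20. GINS2 (ENSG00000131153, chr16:85676198-85690073), a subunit of the GINS complex that joins the helicase when origins fire, had 2478 reads in PBS, 1400 in normo-Migs, 1727 in hypo-Migs and 1514 in CD147KO-Migs, or 71.8, 41.1, 43.0 and 43.2 CPM and 12.5 to 22.0 FPKM. It was lower in every Mig library, by -0.80 (-0.90 to -0.71), -0.74 (-0.83 to -0.65) and -0.73 (-0.82 to -0.64).

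The clamp and nucleotide genes showed the largest gap in their sum, 1468 CPM with PBS and 691 to 718 CPM in the Mig libraries, and 1 gene made most of it. RRM1 (ENSG00000167325, chr11:4094707-4138876), the large subunit of ribonucleotide reductase, the enzyme that makes deoxyribonucleotides, had 29030 reads with PBS, but 7462, 8574 and 7419 with normo-Migs, hypo-Migs and CD147KO-Migs. That gave 841, 219, 214 and 212 CPM, and 201 FPKM against 50.2 to 52.0 FPKM. The ratios were -1.94 (-1.98 to -1.90), -1.98 (-2.01 to -1.94) and -1.99 (-2.03 to -1.95), the lowest of any member, and the 3 Mig libraries lay within 0.05 of each other. RRM2, the small subunit, had 5199, 5377, 6081 and 5554 reads, or 151, 158, 152 and 159 CPM and 28.2 to 29.5 FPKM. Its ratios were 0.07 (0.01 to 0.12), 0.01 (-0.05 to 0.06) and 0.07 (0.02 to 0.13), so the subunits of a single enzyme differed in their distance from PBS by close to 2 on the log2 scale. RRM2 shares 20.2% of its exon bases with a gene on the same strand, and RRM1 shares 1.51%.

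PCNA, the sliding clamp that holds DNA polymerase on its template, had 8608, 5922, 7189 and 6679 reads, or 249, 174, 179 and 191 CPM and 117 to 169 FPKM. Its ratios were -0.52 (-0.57 to -0.47), -0.48 (-0.52 to -0.43) and -0.39 (-0.43 to -0.34). TK1 (thymidine kinase) was at -0.69 to -0.51 and TYMS (thymidylate synthase) at -0.38 to -0.23, with 46.6% of the exon bases of TYMS shared with ENOSF1 and TYMSOS. Licensing, clamp and nucleotide genes together summed to 4352 CPM with PBS and 3012 to 3140 CPM in the Mig libraries, and without RRM1 to 3511 and 2798 to 2929 CPM.

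The genes of G2 and M were close to PBS as a sum, 885 CPM with PBS and 818 to 885 CPM in the Mig libraries, and spread to both sides as single genes. CDK1 (ENSG00000170312, chr10:60778331-60794852), the kinase of mitotic entry, had 3060 reads in PBS, 4794 in normo-Migs, 5828 in hypo-Migs and 4998 in CD147KO-Migs, or 88.7, 141, 145 and 143 CPM and 22.5 to 36.6 FPKM. Its ratios were 0.67 (0.60 to 0.73), 0.71 (0.65 to 0.78) and 0.69 (0.62 to 0.75), within 0.05 of each other. Its partner CCNB1 (cyclin B1) had 11615, 11833, 13103 and 10972 reads, or 336, 347, 326 and 313 CPM and 121 to 135 FPKM, with ratios of 0.04 (0.01 to 0.08), -0.04 (-0.08 to -0.01) and -0.10 (-0.14 to -0.07). CCNB2 (cyclin B2) was at -0.23 to -0.05 and CCNA2 (cyclin A2) at -0.24 to -0.06. The kinase was therefore higher in all 3 Mig libraries than with PBS, and none of its cyclins was.

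The CDC25 phosphatases that activate CDK1 lay on opposite sides. CDC25B had 7764, 5682, 6385 and 5444 reads, or 225, 167, 159 and 155 CPM and 35.7 to 52.0 FPKM, with ratios of -0.43 (-0.48 to -0.38), -0.50 (-0.55 to -0.45) and -0.53 (-0.58 to -0.48). CDC25C, read less, had 475 reads in PBS, 776 in normo-Migs, 817 in hypo-Migs and 643 in CD147KO-Migs, and ratios of 0.72 (0.56 to 0.90), 0.56 (0.40 to 0.73) and 0.41 (0.24 to 0.59).

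Of the mitotic kinases, PLK1 stood alone in its distance from PBS. PLK1 (Polo-like kinase; ENSG00000166851, chr16:23677656-23690367), which acts from centrosome maturation to cytokinesis, had 11742 reads in PBS, 4837 in normo-Migs, 5347 in hypo-Migs and 4597 in CD147KO-Migs, or 340, 142, 133 and 131 CPM and 27.3 to 71.3 FPKM. The ratios were -1.26 (-1.31 to -1.21), -1.35 (-1.40 to -1.31) and -1.37 (-1.42 to -1.32). PLK1 shares 12.5% of its exon bases with other genes. AURKA (Aurora A), the spindle pole kinase, had 6773, 6996, 7716 and 6222 reads, or 196, 205, 192 and 178 CPM and 60.1 to 69.5 FPKM, with ratios of 0.07 (0.02 to 0.11), -0.03 (-0.08 to 0.02) and -0.14 (-0.19 to -0.09). AURKB (Aurora B), the kinase of the chromosomal passenger complex, lay within -0.08 to 0.07. CDC20, the activator of the APC/C, had 8164, 7911, 8325 and 7321 reads, or 236, 232, 207 and 209 CPM and 101 to 116 FPKM, with ratios of -0.03 (-0.07 to 0.02), -0.19 (-0.23 to -0.14) and -0.18 (-0.22 to -0.13). Of the spindle checkpoint genes, BUB1 lay at -0.24 to -0.08 and BUB1B at -0.21 to -0.17.

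The spindle, kinetochore and chromosome genes summed to 2712 CPM with PBS and 2424 to 2750 CPM in the Mig libraries. MKI67, the coat protein of mitotic chromosomes used to mark proliferating cells, had 17836, 20692, 22432 and 18426 reads, or 517, 607, 559 and 526 CPM and 40.3 to 47.0 FPKM. Its ratios to PBS were 0.23 (0.20 to 0.26), 0.11 (0.09 to 0.14) and 0.03 (-0.004 to 0.06). TOP2A, the topoisomerase that untangles sister chromatids, had 19733 reads in PBS, 22730 in normo-Migs, 27387 in hypo-Migs and 20472 in CD147KO-Migs, or 572, 667, 682 and 584 CPM and 88.6 to 105 FPKM, with ratios of 0.22 (0.20 to 0.25), 0.26 (0.23 to 0.28) and 0.03 (0.004 to 0.06). In both of these genes CD147KO-Migs lay next to PBS and the other Migs above it.

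CENPF (ENSG00000117724, chr1:214603195-214664588), a kinetochore protein that builds up in G2, had 16872 reads in PBS, 11482 in normo-Migs, 13076 in hypo-Migs and 10020 in CD147KO-Migs, or 489, 337, 326 and 286 CPM and 24.2 to 41.7 FPKM. It was lower than PBS by -0.54 (-0.57 to -0.50), -0.59 (-0.62 to -0.55) and -0.77 (-0.81 to -0.74). KIF23, a kinesin of cytokinesis, was at -0.65 to -0.61, CENPE, the kinesin of the kinetochore, at -0.47 to -0.31, and HMMR, a spindle protein, at -0.44 to -0.43. Other members of the group stood nearer to PBS: KIF20A at 0.02 to 0.26, CENPA, the histone of centromeres, at 0.11 to 0.26, TPX2, the activator of Aurora A, at -0.02 to 0.17, KIF11, the kinesin that separates spindle poles, at -0.05 to 0.07, and BIRC5 (survivin) at -0.09 to 0.06. PRC1 and NUSAP1 had at most 115 and 377 reads, and 58.4% and 62.2% of their exon bases are shared with other genes of the annotation, so their low reads are uncertain.

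**Figure D3:**
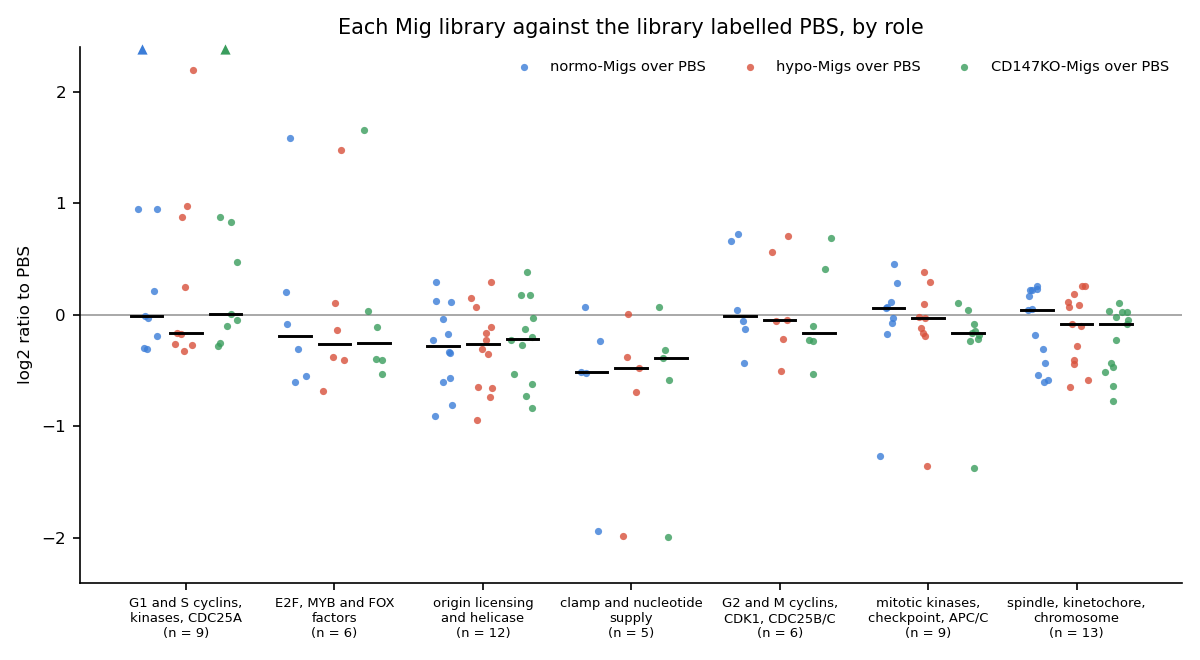
Log2 ratio of each Mig library to the library labelled PBS (vertical axis) for the 60 cell cycle genes, grouped by role, with 1 point per gene and library and a black line at the median of each group. Triangles at the top mark CCND2 beyond the axis, and the lowest points are RRM1 (close to -2) and PLK1.

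Between the Mig libraries the members were much closer to each other. Past 2-fold in either direction, hypo-Migs and normo-Migs differed for 1 member (1.67%), CCND2 with its 8 and 18 reads, against 6.66% of all genes. Between hypo-Migs and CD147KO-Migs no member passed, against 6.65%, and between normo-Migs and CD147KO-Migs none, against 6.73%. Most of that background came from weakly read genes, since among the abundant genes the share was at most 0.0287% in any of these pairs. At 1.2-fold, PRC1 was higher with hypo-Migs than with normo-Migs, at 0.49 (0.06 to 0.95), against 8.52% of all genes that were higher. CCND2 and CDC25A were lower, CDC25A at -0.30 (-0.38 to -0.21), against 7.06% of all genes that were lower. TTK was higher with hypo-Migs than with CD147KO-Migs (7.85% of all genes were) and E2F8 was lower (8.04%). CDC25C, MAD2L1 and UBE2C were higher with normo-Migs than with CD147KO-Migs (7.02%), and CCNE1 and CCNE2 were lower (9.32%). For abundant genes these shares were between 0.905% and 1.81%, and 6 of the 10 genes named here (PRC1, CCND2, CDC25C, E2F8, CCNE1 and CCNE2) had under 1000 reads on average.

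Smaller differences between the Migs ran in opposite directions for the licensing and the mitotic genes, while the clamp and nucleotide genes followed neither set throughout. All 12 licensing and helicase genes had lower values with hypo-Migs than with CD147KO-Migs, with a median of -0.06 and a range of -0.13 to -0.01, and 11 of the 12 had lower values with normo-Migs, with a median of -0.07. The interval lay below 0 in 7 of them (58.3%, against 17.6% of all genes and 22.8% of abundant ones) and in 5 (41.7%, against 16.6% and 18.0%). CD147KO-Migs had the highest value of the 3 Migs in 11 of these 12 genes, against 33.2% of all genes and 29.5% of abundant ones, and the lowest in none. Of the 5 clamp and nucleotide genes, 4 had lower values with hypo-Migs than with CD147KO-Migs (median -0.07), but 3 had higher values with normo-Migs (median 0.05). Of the 28 G2, mitotic and spindle genes, by contrast, 24 had higher values with hypo-Migs than with CD147KO-Migs, with a median of 0.10, and 25 had higher values with normo-Migs, with a median of 0.15. Their interval lay above 0 in 14 with hypo-Migs (against 17.3% of all genes and 23.4% of abundant ones) and in 22 with normo-Migs (78.6%, against 17.9% and 28.6%), and below 0 in none. CD147KO-Migs was the lowest of the 3 Migs in 22 of the 28, against 34.0% of all genes and 37.2% of abundant ones. Over all genes tested the medians were 0.00 in both pairs, and over abundant genes 0.00 and 0.02. Higher values than with CD147KO-Migs were found in 50.8% of abundant genes with hypo-Migs and in 56.8% with normo-Migs.

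Over the 60 members, CD147KO-Migs was the lowest of the Migs in 26 (43.3%). The directions of these groups were the same with DESeq2 size factors, with total reads and with TMM over the Mig libraries alone, where hypo-Migs was above CD147KO-Migs in 23 or 24 of the 28 mitotic genes and in 0 of the 12 licensing genes. Summed, the 28 genes gave 4798 CPM in normo-Migs, 4604 CPM in hypo-Migs and 4268 CPM in CD147KO-Migs, with 4922 CPM for PBS, and the 12 licensing genes gave 2350, 2321 and 2422 CPM. These medians, at most 0.15 on the log2 scale, cannot be set against a spread between replicate cultures, since each condition had 1 library. With a coefficient of variation of 0.1 assumed between libraries, no member passed 1.2-fold between hypo-Migs or normo-Migs and CD147KO-Migs.

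TTK, MAD2L1 and UBE2C showed the largest differences of this kind among well-read genes. TTK (MPS1; ENSG00000112742, chr6:80003887-80042527), the kinase that starts the spindle checkpoint, had 1608 reads in PBS, 1931 in normo-Migs, 2448 in hypo-Migs and 1682 in CD147KO-Migs, or 46.6, 56.7, 61.0 and 48.0 CPM and 10.2 to 13.2 FPKM. Hypo-Migs was above CD147KO-Migs by 0.34 (0.26 to 0.43), normo-Migs above it by 0.24 (0.14 to 0.33), and CD147KO-Migs lay at 0.04 (-0.06 to 0.14) from PBS. MAD2L1 (ENSG00000164109, chr4:120055608-120067074), which holds CDC20 inactive until chromosomes are attached, had 2385, 2547, 2970 and 2168 reads, or 69.1, 74.7, 74.0 and 61.9 CPM and 10.7 to 12.9 FPKM. It was 0.26 (0.18 to 0.34) above CD147KO-Migs with hypo-Migs and 0.27 (0.19 to 0.35) with normo-Migs.

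UBE2C, the ubiquitin-conjugating enzyme of the APC/C, had 2920 reads in PBS, 3946 in normo-Migs, 4158 in hypo-Migs and 3189 in CD147KO-Migs, or 84.6, 116, 104 and 91.1 CPM and 65.7 to 89.3 FPKM. Against CD147KO-Migs it was at 0.35 (0.28 to 0.42) with normo-Migs and 0.19 (0.12 to 0.25) with hypo-Migs. CENPF was at 0.24 (0.20 to 0.28) and 0.19 (0.15 to 0.22), TOP2A at 0.19 (0.16 to 0.22) and 0.22 (0.20 to 0.25), and CDC25C at 0.31 (0.16 to 0.46) and 0.15 (-0.002 to 0.30) in the same order. CENPF is the one of these that was lower than PBS in every Mig library.

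In the other direction, CCNE1 was at -0.26 (-0.39 to -0.13) with normo-Migs and -0.23 (-0.35 to -0.10) with hypo-Migs against CD147KO-Migs, and MCM5, with 9660, 7544, 8798 and 8402 reads in the 4 libraries, or 280, 221, 219 and 240 CPM and 29.6 to 38.1 FPKM, at -0.12 (-0.16 to -0.07) and -0.13 (-0.17 to -0.09). E2F1 was at -0.07 (-0.14 to -0.01) and -0.18 (-0.24 to -0.11), and CDC25A at 0.08 (-0.01 to 0.17) and -0.22 (-0.30 to -0.13), so CDC25A was low with hypo-Migs alone. PCNA was at -0.13 (-0.18 to -0.08) and -0.09 (-0.14 to -0.04). E2F8, with 539, 351, 389 and 415 reads, was at -0.20 (-0.41 to 0.01) and -0.29 (-0.49 to -0.09), and E2F7, with 1369, 926, 1199 and 1052 reads, at -0.14 (-0.27 to -0.02) and -0.01 (-0.13 to 0.11).

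**Figure D4:**
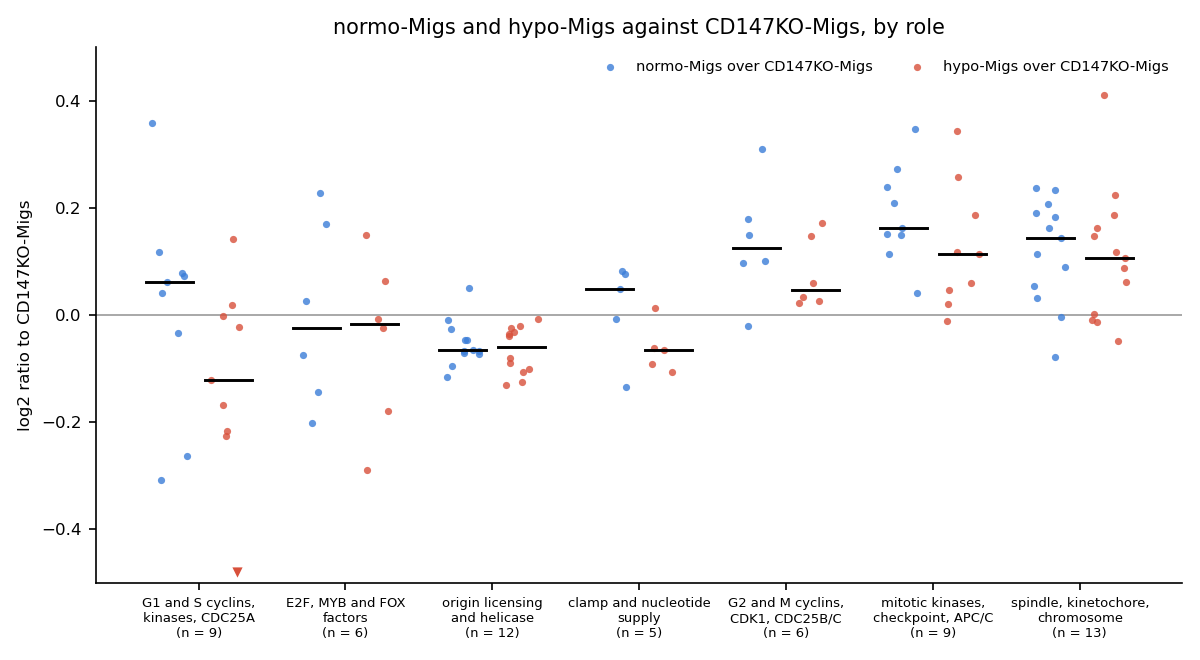
Log2 ratio of normo-Migs and of hypo-Migs to CD147KO-Migs (vertical axis) for the 60 cell cycle genes, grouped by role, with 1 point per gene and a black line at the median of each group. All 12 licensing genes lay below 0 with hypo-Migs, most mitotic and spindle genes lay above it, and the triangle marks CCND2 beyond the axis.

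In the medians of the 12 licensing and of the 28 mitotic genes, hypo-Migs and normo-Migs differed less than either did from CD147KO-Migs. Over all 60 members this did not hold. Their median was -0.06 for hypo-Migs against normo-Migs, -0.005 for hypo-Migs against CD147KO-Migs and 0.07 for normo-Migs against CD147KO-Migs. Over the 28 mitotic genes the median of hypo-Migs against normo-Migs was -0.07. Of these, 20 of 28 were lower with hypo-Migs (71.4%, against 49.7% of all genes and 55.9% of abundant ones). Over the 12 licensing genes the median was -0.01, a sign that turned with total reads as the scale (0.01). TK1 was lower with hypo-Migs by -0.18 (-0.24 to -0.12), CCND3 by -0.16 (-0.22 to -0.11), CDC20 by -0.16 (-0.21 to -0.12) and CDC25C by -0.16 (-0.31 to -0.02). TK1 had 6308 reads in PBS, 4371 in normo-Migs, 4537 in hypo-Migs and 4262 in CD147KO-Migs, or 183, 128, 113 and 122 CPM and 60.2 to 98.0 FPKM. Higher with hypo-Migs were E2F7 at 0.14 (0.01 to 0.26), TTK at 0.11 (0.02 to 0.19), CCNB2 at 0.075 (0.005 to 0.145) and TOP2A at 0.03 (0.01 to 0.06). CCNB2 had 3272, 2951, 3662 and 2835 reads, or 94.8, 86.6, 91.2 and 81.0 CPM and 28.6 to 33.8 FPKM.

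Set against their promoters, the members with an E2F-like element alone and those with a CHR alone divided in a like way. Only the 47 members with a promoter window enter here, so TTK, UBE2C, FOXM1, MCM4 and MCM5, among others, do not. Of abundant genes, 49.2% were lower and 50.8% higher with hypo-Migs than with CD147KO-Migs, with an interval below 0 in 22.8% and above 0 in 23.4%. With normo-Migs, 43.2% were lower and 56.8% higher. The 13 members with an E2F-like element and no CHR all had lower values with hypo-Migs than with CD147KO-Migs, with a median of -0.08 and an interval below 0 in 7, and 9 of 13 had lower values with normo-Migs. Of the 13 members with a CHR and no E2F-like element, 10 had higher values with hypo-Migs, with a median of 0.09 and an interval above 0 in 6, and 11 had higher values with normo-Migs, with a median of 0.10. The 18 members with neither were at 0.03 and 0.11, so with normo-Migs they lay as high as those with a CHR alone. The promoters follow the roles closely, so the elements and the roles cannot be told apart here, and genes of a role are not independent replicates. Against PBS the elements did not separate the members: the median with hypo-Migs was -0.32 for those with an E2F-like element alone and -0.17 for those with a CHR alone, and each set held genes on both sides, from E2F1 at 1.48 to MCM2 at -0.94 in the first.

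A further 177 genes of the same pathways, which are not among the 60, were listed in 8 groups, and all had at least 10 reads in a library. Over them the median of the mean ratio of the 3 Migs to PBS was -0.10. All 3 Mig libraries were past 2-fold higher in 3 (1.69%, against 12.6% of all genes and 5.96% of abundant ones) and lower in none (against 6.73% and 2.89%). Past 1.2-fold, 34 were higher (19.2%, against 25.3% and 27.4%) and 52 were lower (29.4%, against 21.7% and 26.8%), the latter a share close to that of abundant genes.

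Between the Migs, the lists differed in how far they followed the members of like role. As background, 50.3% of all genes and 56.8% of abundant ones had higher values with normo-Migs than with CD147KO-Migs. With hypo-Migs these shares were 50.1% and 50.8%. The 26 genes of spindle assembly, kinesins and cytokinesis repeated the order of the Migs seen in the mitotic members, with 25 of 26 at higher values with normo-Migs than with CD147KO-Migs (median 0.18) and 21 of 26 with hypo-Migs (median 0.11). Condensin, cohesin and separase genes had higher values than CD147KO-Migs in 16 of 22 with normo-Migs and 17 of 22 with hypo-Migs (medians 0.06 in both). The 30 kinetochore and centromere genes did so in 23 with normo-Migs (median 0.07) but were split 15 to 15 with hypo-Migs (median 0.01). On the side of replication, the 18 origin firing and helicase partners did not repeat the order of the licensing members: 12 had higher and 6 lower values with normo-Migs than with CD147KO-Migs (median 0.07), and with hypo-Migs they were split 9 to 9 (median 0.02). The 31 genes of polymerases, clamp loader and RPA lay near equality, with medians of -0.003 and -0.02 and 18 and 19 of 31 lower. These were 58.1% and 61.3%, against 48.9% and 49.3% of all genes and 43.2% and 49.2% of abundant ones. The other 3 lists had medians between -0.04 and 0.03 in both pairs.

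The spindle assembly genes were also lower than PBS in 21, 21 and 23 of 26 with normo-Migs, hypo-Migs and CD147KO-Migs. These shares were 80.8%, 80.8% and 88.5%, against 47.6% to 48.4% of all genes and 49.5% to 51.2% of abundant ones. SPAG5, a protein of the spindle pole, had 8279 reads in PBS, 4321 in normo-Migs, 4900 in hypo-Migs and 3709 in CD147KO-Migs, the largest distance of the group. ASPM, which sets the spindle pole, had 8638, 4737, 5605 and 4294 reads, and ANLN (anillin), a scaffold of the cytokinetic ring, 18027, 10086, 11660 and 9043.

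The CDK inhibitors and WEE1 family stood above PBS in 9 of 12 genes in each Mig library, and below it in 3. As background, 51.3% to 52.1% of all genes and 48.8% to 50.5% of abundant ones were above PBS. Past 1.2-fold in all 3 Mig libraries, 5 of the 12 were higher (25.3% of all genes and 27.4% of abundant ones were). In the other direction 1 was lower (21.7% and 26.8%), and the lowest mean ratio in the list was -0.555. CDKN1A (p21), which binds CDK2 and PCNA, had 2170 reads in PBS, 4961 in normo-Migs, 5981 in hypo-Migs and 5327 in CD147KO-Migs, with ratios of 1.21 (1.138 to 1.285), 1.24 (1.174 to 1.316) and 1.27 (1.202 to 1.347). CDKN2B (p15), an inhibitor of CDK4 and CDK6, had 1279, 2419, 2829 and 2442 reads, and CDKN2D (p19) 119, 195, 256 and 174. The inhibitor CDKN1A and the activators E2F1, CCND1 and CDK6 were thus all higher in the 3 Mig libraries than in the library labelled PBS.

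Of the genes that fire origins, GINS4 had 600 reads in PBS, 1470 in normo-Migs, 1636 in hypo-Migs and 1573 in CD147KO-Migs, a mean ratio of 1.30. Its partner GINS1 was at -0.72, and MCM8, a relative of the ring subunits, at -0.99. With GINS2 at -0.76, subunits of the GINS complex lay on both sides of PBS, as those of the MCM ring did. Of the polymerase and RPA genes, RPA1, the large subunit of the protein that coats single-stranded DNA, had 13377, 7025, 8355 and 7148 reads, a mean ratio of -0.91. POLE4 was at -0.84 and POLD4 at 1.03 with 54 to 132 reads. Among kinetochore genes CENPU was at 1.35, KNL1 at -0.72 and ZW10 at -0.68, and among cohesin and condensin genes RAD21, the closing subunit of cohesin, had 9803, 18487, 22924 and 19726 reads (0.98), with STAG1 at -0.99 and NCAPH2 at -0.85. Of the APC/C subunits CDC16 was at -0.83, ANAPC7 at 0.76 and CDC23 at 0.55, and of the E2F partners TFDP1 was at -0.69, E2F5 at 0.79 and RBL2, a pocket protein, at -0.88. In each of these groups some subunits were higher and others lower than in the library labelled PBS.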

How the data were processed

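The labels name CASAVA 1.8, fastp, HISAT2 2.0.5, featureCounts 1.5.0-p3 and hg38; the handling of strands is not given in the sources used here. The labels give a SMARTer mRNA kit, the supplementary methods poly-T beads and random hexamers. The authors deposited raw counts of reads per gene and FPKM, scaled by gene length and library size. Of 58735 genes, 58724 had the same coordinates in GENCODE release 29.

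With R 4.3.3, edgeR 4.0.16 and Python 3.11.15 (numpy 2.4.6, pandas 2.3.3, scipy 1.17.1, matplotlib 3.10.9), TMM scaling was computed over the genes that reached 10 reads in any library. Log2 ratios used a prior count of 2. Each condition had 1 library, so no test between conditions was made and no p-value is given; DESeq2 1.42.0 gave size factors as an alternative. Ratios have exact 95% intervals, tested on simulated data. A count of 0 allows up to 3 reads.

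The members, role groups and pathway lists were chosen with earlier results of these data known. Full values were given for the 3 members of each role group with the most reads, the 5 highest and 5 lowest against PBS, and up to 5 in each direction between Migs. Of each pathway list, up to 3 genes with at least 100 reads on average and the largest mean ratio to PBS were named. The libraries carry the same batch label. Western blots, imaging and animal experiments were not analysed here.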

Additional observations from a re-analysis of the deposited data

How the results depend on the processing

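The alternatives were DESeq2 size factors, total reads, TMM over the 3 Mig libraries, no filter on reads, at least 10 reads in every library, a prior count of 0.25, log2(FPKM + 1), an assumed coefficient of variation of 0.1, fold alone and 1.2-fold. Of 255 values under them for counts of members and medians over the 60 genes, 217 stayed within 1.5 times the count or within the counting interval, 38 moved and 0 turned direction. Of 396 values for single genes, 14 moved, 7 with total reads and 7 with log2(FPKM + 1), and 0 turned direction. With at least 10 reads in every library, or with log2(FPKM + 1), CCND2 dropped out or lost its ratio: 1 member in place of 2 was past 2-fold above PBS in each comparison, 0 in place of 1 between hypo-Migs and normo-Migs, and 1 in place of 2 past 1.2-fold lower there. On the FPKM scale, no member was past 1.2-fold higher with hypo-Migs than normo-Migs (0 for 1), lower with hypo-Migs than CD147KO-Migs (0 for 1) or lower with normo-Migs than CD147KO-Migs (0 for 2). With 1.2-fold in place of 2-fold, 9, 9 and 8 members were above PBS with normo-Migs, hypo-Migs and CD147KO-Migs, and 21, 22 and 20 below. Between Migs this gave 1 higher and 2 lower for hypo-Migs against normo-Migs, 1 and 1 for hypo-Migs against CD147KO-Migs, and 3 and 2 for normo-Migs against CD147KO-Migs. With the assumed coefficient, hypo-Migs had 1 member past 2-fold above PBS, 5 past 1.2-fold above it (for 9) and 13 below (for 22), CD147KO-Migs had 13 below (for 20), and between Migs 0 were called but for 1 lower with hypo-Migs than normo-Migs. Without a filter on reads, 2 members in place of 1 were past 1.2-fold higher with hypo-Migs than CD147KO-Migs, and with fold alone 2 were higher and 2 lower. The number of genes scaled, the wider interval or the pseudocount sets these alternatives apart by construction, and which of these changed each call was not tested.

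The share of abundant genes was added after seeing the data. With 1 library per condition, there was no replicate to leave out. No paired analysis was possible because each condition has 1 library. For a typical member, counting error limits a difference to about 0.06 on the log2 scale to either side, and the spread between cultures was not measured.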
